A study of Mus musculus with 6 samples.

Results

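The EGFR family comprised 10 genes, taken by name from the 25067 rows of normalized counts measured by RNA sequencing in mouse colonic organoids. They were the receptors Egfr, Erbb2 and Erbb3, the ligands Areg, Ereg, Hbegf, Tgfa, Btc and Epgn, and Lrig3, a transmembrane protein related to the receptor inhibitor Lrig1. All 10 had a row, and 9 were tested because their normalized count averaged 10 or more over the 6 libraries. The organoids were grown from colonic crypts of C57BL/6 mice aged 8 weeks with the genotype Prkcif/fPrkczf/f;Villin-CreERT2 (floxed alleles of Prkci and Prkcz), in which a tamoxifen-activated Cre is driven by the villin promoter of intestinal epithelium. At passage they received 4-OH-Tamoxifen (4-OHT, 3 libraries) or the vehicle ethanol (3 libraries), and RNA was extracted after 3 days. Both groups therefore carried the floxed alleles and the Cre, although the labels also call the vehicle group wild type, and no library with 4-OHT but without the floxed alleles or Cre was among the 6. Loss of the atypical protein kinases C encoded by Prkci and Prkcz, Cre activity and 4-OHT itself cannot be told apart. The culture medium contained EGF, WNT3A, Noggin and R-spondin 1, so a ligand of EGFR was supplied to every library from outside.

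EGFR, ERBB2 and ERBB3 are receptor tyrosine kinases at the cell surface. Ligands are made as membrane-bound precursors and released by metalloproteases, and a bound receptor pairs with itself or with another family member. ERBB2 has no known direct ligand and acts as a partner, whereas ERBB3 has little kinase activity of its own and pairs with the others. In the intestine EGF is part of the standard organoid medium, where it sustains proliferation of crypt cells, and the inhibitor LRIG1 marks crypt base cells and restrains ErbB signaling.

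In 4-OHT organoids 3 of the 9 tested members rose and 0 fell. Egfr rose 1.45-fold, the ligand Hbegf 1.30-fold and the ligand Tgfa 1.12-fold. The remaining receptors Erbb2 and Erbb3, the ligands Areg, Ereg and Btc, and Lrig3 did not pass the test. The share of members called, 33.3%, lies below the 43.6% of all 13210 tested rows that passed (limma-trend, Benjamini-Hochberg adjusted p under 0.05), with 22.7% of all rows higher and 21.0% lower. The median log2 fold change over the 9 members was 0.062, against -0.0054 over all tested rows. Beyond 0.5 on the log2 scale, Egfr was the single member called, where 6.68% of all rows were higher by that much and 7.51% lower. The values of the 3 libraries of one group lay entirely above those of the other group for Egfr, Hbegf and Tgfa, as they did in either direction for 52.1% of all tested rows (26.8% higher and 25.3% lower in 4-OHT). The labels do not say whether libraries of a group came from separate mice or cultures, so the p-values measure the spread between these libraries, which may be technical.

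**Figure D1:**
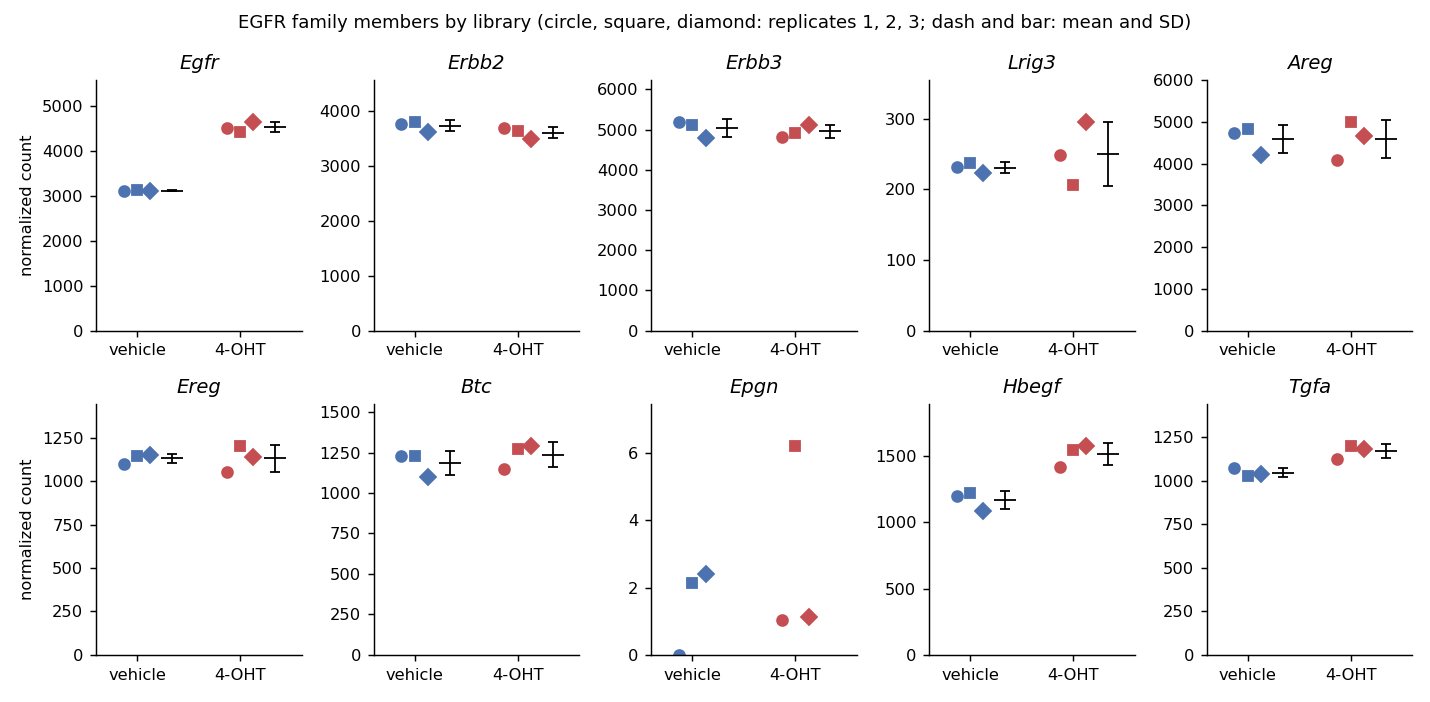
Normalized counts (y axes, from 0) of the 10 members in each library, with 1 panel per gene, vehicle libraries in blue and 4-OHT libraries in red. The dash and bar give the mean and SD of 3 libraries (none is drawn for Epgn, which had at most 6 reads in a library), and the groups lie apart for Egfr, Hbegf and Tgfa.

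The promoters of Egfr, which had the largest change, of Tgfa, which rose by the smallest amount among the members called, and of Areg, the most abundant ligand, are shown because they differ in the short motifs they carry. The sequences are the 250 bases before the annotated start in RefSeq (GRCm38.p6, plus strand), which is an earlier build than the one named in the submitters' processing notes. Capitals mark matches on either strand to a GC box (GGGCGG), the cyclic AMP response element (TGACGTCA) and a TATA motif (TATAAA).
Egfr, chr11:16751953-16752202: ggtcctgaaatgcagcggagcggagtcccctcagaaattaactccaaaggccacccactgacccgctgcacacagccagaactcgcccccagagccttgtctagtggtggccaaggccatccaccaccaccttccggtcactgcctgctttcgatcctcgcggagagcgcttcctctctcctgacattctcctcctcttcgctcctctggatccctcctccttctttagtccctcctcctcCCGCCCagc
Tgfa, chr6:86194972-86195221: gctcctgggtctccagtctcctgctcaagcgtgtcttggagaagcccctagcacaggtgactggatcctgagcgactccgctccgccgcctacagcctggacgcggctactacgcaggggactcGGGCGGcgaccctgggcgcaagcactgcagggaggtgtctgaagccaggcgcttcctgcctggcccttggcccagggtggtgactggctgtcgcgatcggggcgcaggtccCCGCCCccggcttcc
Areg, chr5:91139349-91139598: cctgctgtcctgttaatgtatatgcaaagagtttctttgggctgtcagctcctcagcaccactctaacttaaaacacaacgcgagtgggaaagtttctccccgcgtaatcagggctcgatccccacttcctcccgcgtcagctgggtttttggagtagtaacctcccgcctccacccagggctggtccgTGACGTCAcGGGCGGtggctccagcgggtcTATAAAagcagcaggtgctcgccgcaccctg

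Windows were searched for 7 of the 10 members, and none was used for Erbb3, Ereg or Hbegf. Windows on chromosome 18, where Hbegf lies, were left out of the search of members, so its promoter was not examined. Areg carried a TATA motif that begins 31 bases before its start, a GC box at 52 and the cyclic AMP response element at 61. Egfr carried a GC box at 9 and Tgfa GC boxes at 126 and 15, and neither held the TATA motif or the cyclic AMP response element in this window. Of the other members searched, Lrig3 had a GC box, Epgn a TATA motif, and Erbb2 and Lrig3 each a match to the TEAD core (CATTCC). No AP-1 motif (TGANTCA) was present in any of the 7 windows. Over all 32851 windows of the same length the GC box occurred in 32.7%, the cyclic AMP response element in 1.55%, the TATA motif in 12.4%, the TEAD core in 12.6% and the AP-1 motif in 6.75%. None of these 5 motifs contains another. A match describes the letters of the window and not a bound site.

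Among the receptors, Egfr was raised in every 4-OHT library. Its normalized count was 3104, 3138 and 3116 in vehicle replicates 1, 2 and 3, and 4523, 4425 and 4660.3 in 4-OHT replicates 1, 2 and 3. The vehicle libraries were close together (coefficient of variation 0.544%), and each 4-OHT library lay above all of them. The mean went from 3119 ± 17.0 (SD, n = 3) to 4536 ± 118 (SD, n = 3), which is 0.54 on the log2 scale (SE 0.044, 95% interval 0.45 to 0.63, limma adjusted p = 8.0e-09). Egfr was covered by between 2574 and 4423 reads per library. A noncoding gene annotated over Egfr, Egfros, had between 1 and 7 reads.

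Erbb2, the partner receptor, had a normalized count of 3757, 3800.1 and 3619 in the vehicle libraries and 3690.3, 3624 and 3483 in the 4-OHT libraries. The groups overlapped, and the log2 fold change was -0.050 (SE 0.045, 95% interval -0.14 to 0.045, limma adjusted p = 0.40). Erbb3 had 5202, 5117 and 4787 in vehicle and 4824, 4913 and 5127 in 4-OHT replicates 1, 2 and 3. Its groups overlapped as well, with a log2 fold change of -0.023 (SE 0.046, 95% interval -0.12 to 0.074, limma adjusted p = 0.72). As fold changes the intervals were 0.905 to 1.03 for Erbb2 and 0.921 to 1.05 for Erbb3. Mien1, which overlaps Erbb2 in the annotation, had between 49 and 79 reads, against at least 2989 for Erbb2.

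Levels were compared between genes after division by the length of the merged annotated exons (normalized count per kb). On that scale Erbb3 was the most abundant receptor in vehicle libraries (837 ± 36.5, SD, n = 3), followed by Erbb2 (715 ± 18.2) and Egfr (275 ± 1.50). In 4-OHT libraries the order was kept, at 824 ± 25.9 for Erbb3, 691 ± 20.3 for Erbb2 and 401 ± 10.4 for Egfr (SD, n = 3), and no library of one receptor overlapped those of another. The same order of group means was obtained with the length of the longest coding transcript. Egfr made up 14.7%, 14.9% and 15.6% of the summed receptor level in vehicle replicates 1, 2 and 3, and 20.9%, 20.5% and 21.3% in 4-OHT replicates 1, 2 and 3. The ratio of Egfr to Erbb2, per kb, was between 0.380 and 0.396 in vehicle libraries and between 0.562 and 0.615 in 4-OHT libraries. Both measures of Egfr lay apart between the groups, while the ratio of Erbb2 to Erbb3 overlapped (0.834, 0.858 and 0.873 in vehicle, 0.883, 0.852 and 0.785 in 4-OHT). Erbb4, encoding the remaining receptor of the family, had no row under that symbol among the normalized counts.

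**Figure D2:**
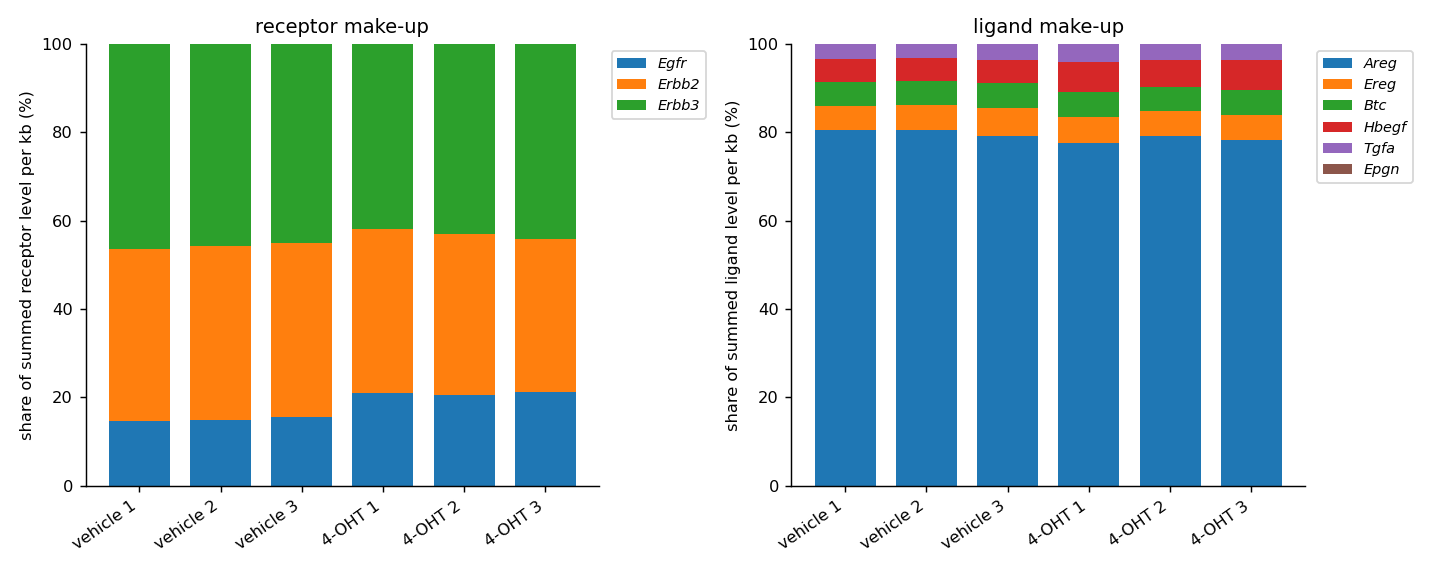
Share of the summed level per kb (y axes, percent) taken by each receptor (left) and each ligand (right) in the 6 libraries (x axes). Egfr takes a larger share of the receptors in the 3 4-OHT libraries (20.5% to 21.3%) than in the 3 vehicle libraries (14.7% to 15.6%), and Areg takes most of the ligand level in every library.

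Of the ligands, Hbegf and Tgfa rose and the others did not pass the test. Hbegf, a heparin-binding ligand of EGFR and ERBB4, had a normalized count of 1195, 1217 and 1087 in vehicle replicates 1, 2 and 3 and of 1418, 1544 and 1575 in 4-OHT replicates 1, 2 and 3. Each 4-OHT library lay above each vehicle library. The log2 fold change was 0.38 (SE 0.061, 95% interval 0.25 to 0.50, limma adjusted p = 4.5e-05).

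Tgfa, a ligand of EGFR, had a normalized count of 1075, 1025 and 1036 in vehicle and of 1125, 1199 and 1182 in 4-OHT libraries. The groups lay apart, with the highest vehicle library (replicate 1) close to the lowest 4-OHT library (replicate 1). The log2 fold change was 0.16 (SE 0.057, 95% interval 0.041 to 0.28, limma adjusted p = 0.028). This call was lost without vehicle replicate 2 (0.15, limma adjusted p = 0.10), without vehicle replicate 3 (0.15, 0.062), without 4-OHT replicate 2 (0.14, 0.079) and without 4-OHT replicate 3 (0.15, 0.082). DESeq2 on the recovered reads gave 0.16 with an adjusted p of 0.0505, which misses the threshold.

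Areg, encoding amphiregulin, was by far the most abundant ligand. Its normalized count was 4743, 4831 and 4204 in vehicle replicates 1, 2 and 3 and 4090.1, 5007 and 4661 in 4-OHT replicates 1, 2 and 3. The range of the 4-OHT libraries enclosed that of the vehicle libraries, and the log2 fold change was -0.0044 (SE 0.064, 95% interval -0.14 to 0.13, limma adjusted p = 0.96). Ereg, encoding epiregulin, had 1100.0, 1146 and 1148 in vehicle and 1052, 1202 and 1137 in 4-OHT libraries. The groups overlapped, with a log2 fold change of -0.0030 (SE 0.061, 95% interval -0.13 to 0.12, limma adjusted p = 0.97). A noncoding gene annotated over Ereg, Gm19610, had between 43 and 80 reads, against at least 948 for Ereg.

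Btc, encoding betacellulin, a ligand of EGFR and ERBB4, had a normalized count of 1227, 1226 and 1102 in vehicle and 1148, 1272 and 1291 in 4-OHT libraries. The groups overlapped, and the log2 fold change was 0.062 (SE 0.063, 95% interval -0.070 to 0.19, limma adjusted p = 0.46). Epgn, encoding epigen, had 0, 3 and 2 reads in vehicle replicates 1, 2 and 3 and 1, 6 and 1 reads in 4-OHT replicates 1, 2 and 3. It was not tested, and a difference was not detectable at this depth, with 5 of its 6 libraries at 3 reads or fewer, the upper limit that a count of 0 allows (counting error only).

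Epgn, Ereg, Areg and Btc are neighboring coding genes on chromosome 5, in that order and with no other coding gene between them in RefSeq. Of the 3 cluster ligands tested, 0 were called, and both ligands encoded elsewhere (Hbegf on chromosome 18 and Tgfa on chromosome 6) rose, where 43.6% of all rows were called and 22.7% were higher. The Tgfa call was lost in 6 of the 16 alternatives. Whether position and change are related was not tested. The log2 fold change of Areg across the alternatives lay between -0.16 and 0.076, that of Ereg between -0.10 and 0.048, and that of Btc between -0.044 and 0.11, and none was called in any of the alternatives.

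Per kb of merged exons, Areg reached 3780.1 ± 279 in vehicle and 3775 ± 381 in 4-OHT libraries (SD, n = 3). The next ligands in vehicle were Ereg (274 ± 6.58), Btc (262 ± 15.9) and Hbegf (241 ± 14.4), which lay close together, and then Tgfa (161 ± 4.02). Ereg and Btc did not lie apart by library, nor did Btc and Hbegf. In 4-OHT libraries Hbegf (313 ± 17.2) ranked second, with all 3 of its libraries above those of Ereg (274 ± 18.3) and Btc (274 ± 17.2), and Tgfa reached 180 ± 5.97. The rank of Hbegf depended on the length used: with the longest coding transcript it was second in both groups, at 491 in vehicle and 637 in 4-OHT (group means), ahead of Btc at 412 and 430.1. Areg took 79.2% to 80.6% of the summed ligand level per kb in vehicle and 77.5% to 79.2% in 4-OHT libraries. Hbegf took 5.09%, 5.10% and 5.15% in vehicle and 6.76%, 6.14% and 6.64% in 4-OHT replicates 1, 2 and 3. With the longest coding transcript as the length, the share of Hbegf was 9.43% to 9.52% in vehicle and 11.3% to 12.3% in 4-OHT libraries, so its size depends on the length while the groups lay apart with either. The share of Areg with that length was 71.9% to 73.4% in vehicle and 69.2% to 71.4% in 4-OHT libraries. The ratio of Hbegf to Areg, per kb of merged exons, was 0.0633 to 0.0650 in vehicle and 0.0775 to 0.0872 in 4-OHT libraries, without overlap, while the ratio of Ereg to Areg overlapped.

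**Figure D3:**
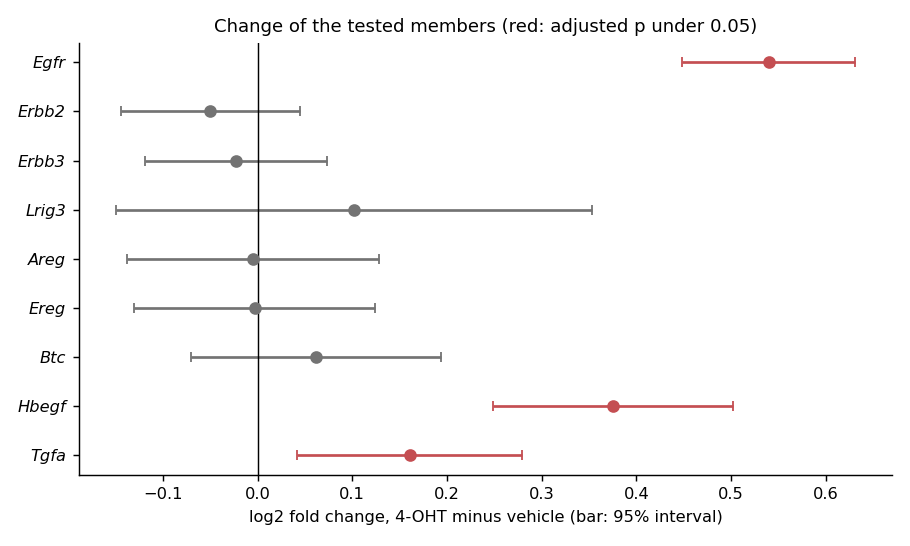
Log2 fold change of the 9 tested members (x axis, 4-OHT minus vehicle, points) with the 95% interval of the limma fit (bars), in red where the adjusted p was under 0.05. The intervals of Egfr, Hbegf and Tgfa lie above 0, and those of the other 6 members include 0.

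Lrig3 was the least abundant member after Epgn. Its normalized count was 231, 238 and 223 in vehicle and 248, 206 and 296 in 4-OHT replicates 1, 2 and 3. The 4-OHT libraries spread on both sides of the vehicle libraries, with a coefficient of variation of 17.9% against 3.24%. The log2 fold change was 0.10 (SE 0.12, 95% interval -0.15 to 0.35, limma adjusted p = 0.53), and the interval is the widest of the tested members. It was between -0.027 (without 4-OHT replicate 3) and 0.23 (without 4-OHT replicate 2) when each library was left out, and was not called in these fits. Its relative Lrig1, a feedback inhibitor of ErbB receptors, fell from 4467 ± 124 to 3125 ± 186 (normalized count, SD, n = 3), which is -0.52 on the log2 scale (SE 0.049, limma adjusted p = 6.6e-08).

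Across 6 further lists of the pathway, 76 of the 79 genes with a row were tested, of which 37 rose and 6 fell (56.6% called, against 43.6% of all rows), with a median log2 fold change of 0.15. The share of all rows called depends on their level. It was 49.8% of 10987 rows in a fit where the normalized count had to average 50 or more. This limit holds for the 43.6% set beside each list below. No test was made of whether these lists differ from other genes.

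Of the other ligands of the family, the 4 with a row had few reads. The gene Egf itself had 18, 26 and 16 reads in vehicle and 12, 8 and 5 reads in 4-OHT replicates 1, 2 and 3, so its transcript was rare in cultures that were supplied with the protein. Its log2 fold change was -1.03 (standard error 0.40, limma adjusted p = 0.046). Egf lost the threshold without vehicle replicate 1 (-1.08, limma adjusted p = 0.089), 2 (-1.02, 0.12) or 3 (-0.98, 0.12) and without 4-OHT replicate 2 (-1.02, 0.078) or 3 (-0.78, 0.14). With all libraries kept, the call was also lost with DESeq2 (adjusted p = 0.11), and in limma without the filter on low values (adjusted p = 0.12) and with quantile normalization (adjusted p = 0.051). Nrg4, a neuregulin that binds ERBB4, had between 13 and 31 reads per library and a log2 fold change of -0.26 (standard error 0.34, limma adjusted p = 0.57). Nrg1 and Nrg2 had at most 1 and 2 reads in a library, and Nrg3 had no row under that symbol.

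Of the genes that shed or traffic ligands, 4 of 9 tested rose and 1 fell (55.6% called, against 43.6% of all rows). Frmd8, which stabilizes the iRhom and ADAM17 sheddase complex, went from 1486 ± 100 to 2214 ± 32.6 (normalized count, SD, n = 3), which is 0.58 on the log2 scale (SE 0.055, limma adjusted p = 6.6e-08). Rhbdf2, which encodes iRhom2, rose by 0.32 (SE 0.058, limma adjusted p = 1.5e-04). Adam12, a metalloprotease, was at low levels (1.87, 7.09 and 12.1 in vehicle and 27.9, 22.8 and 44.4 in 4-OHT replicates 1, 2 and 3, normalized count) and rose by 2.23 on the log2 scale (SE 0.49, limma adjusted p = 9.3e-04). The size of the change in Adam12 depended on the setting, between 1.30 (pseudocount of 10) and 2.71 on the log2 scale (without vehicle replicate 3), and was 1.61 without vehicle replicate 1. Chosen after their values were seen, Rhbdl2, a rhomboid protease, rose by 0.20 and Adam17, the sheddase of Areg, Hbegf and Tgfa precursors, was the gene that fell, at -0.15 on the log2 scale (SE 0.055, limma adjusted p = 0.033).

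Of the receptor inhibitors and ubiquitin ligases, 7 of 13 rose and Lrig1 was the gene that fell (61.5% called, against 43.6% of all rows). Cblc, a ubiquitin ligase of the Cbl family that acts on EGFR, went from 2003 ± 62.3 to 2736 ± 73.7 (normalized count, SD, n = 3), which is 0.45 on the log2 scale (SE 0.048, limma adjusted p = 3.2e-07). Socs5, an inhibitor of EGFR signaling, rose by 0.41 (SE 0.082, limma adjusted p = 4.1e-04). For receptor endocytosis and sorting, 8 of 14 rose and 0 fell (57.1% called, against 43.6% of all rows). Tsg101, an ESCRT subunit, rose by 0.51 on the log2 scale (SE 0.052, limma adjusted p = 1.6e-07). The adaptor Sh3kbp1, which binds Cbl, rose by 0.33 and the endocytic adaptor Epn2 by 0.29 on the log2 scale (limma adjusted p = 2.7e-05 and 9.0e-04).

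Of the adaptors and the Ras-MAPK and PI3K relay, 10 of 22 rose and 2 fell (54.5% called, against 43.6% of all rows). The small GTPase genes Hras (0.45, SE 0.060, limma adjusted p = 4.2e-06) and Nras (0.44, SE 0.052, limma adjusted p = 1.0e-06) rose. Pik3r1, the regulatory subunit of PI3K, fell from 1475 ± 84.5 to 1051 ± 113 (normalized count, SD, n = 3), at -0.49 on the log2 scale (SE 0.070, limma adjusted p = 1.0e-05).

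Of the genes induced by ERK and its feedback inhibitors, 8 of 16 rose and 1 fell (56.2% called, against 43.6% of all rows). Dusp5, a nuclear ERK phosphatase, rose from 485 ± 19.6 to 954 ± 90.1 (normalized count, SD, n = 3), which is 0.97 on the log2 scale (SE 0.075, limma adjusted p = 4.3e-09). The related transcription factors Etv4 and Etv5 moved in opposite directions. Etv4 rose by 0.49 (SE 0.059, limma adjusted p = 1.1e-06), whereas Etv5 was at 270, 282 and 253 in vehicle and 176, 176 and 196 in 4-OHT libraries (normalized count), a log2 fold change of -0.55 (standard error 0.11, limma adjusted p = 2.8e-04).

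**Figure D4:**
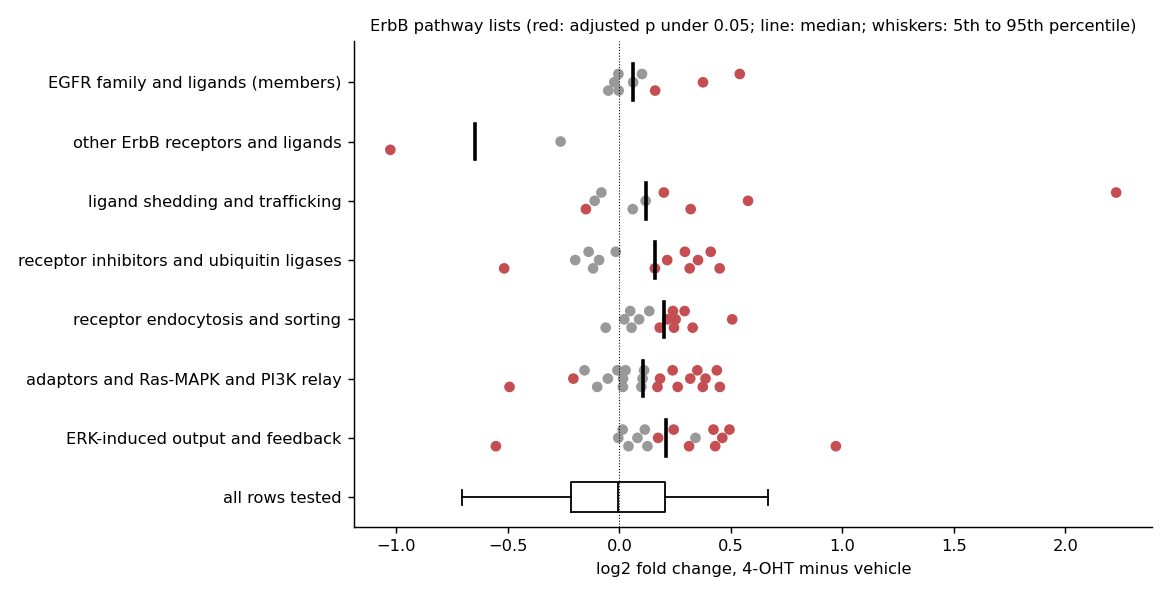
Log2 fold change (x axis, 4-OHT minus vehicle) of each tested gene in the member list and 6 further pathway lists (rows), in red where the adjusted p was under 0.05, with a black line at the median of each list. The box gives the quartiles of all 13210 tested rows with whiskers from the 5th to the 95th percentile, and most red points lie above 0 in every list but that of the other ErbB receptors and ligands.

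The targeted genes were measured in every library as a check of the labels. Prkcz fell from 912 ± 37.9 to 281 ± 13.6 and Prkci from 3520 ± 86.9 to 3021 ± 132 (normalized count, SD, n = 3), at -1.70 and -0.22 on the log2 scale (limma adjusted p = 3.2e-12 and 8.1e-04). These values cover the whole gene, and the deleted exons alone were not analysed here. The libraries held between 15804709 and 26957612 reads. The 9 epithelial markers were all present, with 6 higher and 1 lower in 4-OHT. Beside this and the next marker list, 22.7% of all tested rows were higher and 21.0% lower. The summed level of the epithelial markers went from 16054 to 16591 CPM (reads scaled to a common library total) in vehicle to 20229 to 21308 in 4-OHT. Krt8 weighs most in this sum and went from 135633 ± 3502 to 196658 ± 10141 (normalized count, SD, n = 3), or 0.54 on the log2 scale. Smaller rises were seen for Vil1 (0.24) and Epcam (0.27). Cdx2 was the epithelial marker that fell, at -0.26 on the log2 scale (limma adjusted p = 6.9e-05). The list of 9 Paneth and ileal markers summed to 30.1 to 36.1 CPM in vehicle, 26.4 in 4-OHT replicate 1, 68.1 in 4-OHT replicate 2 and 53.6 in 4-OHT replicate 3, with 6 of the 7 tested higher and 1 lower in 4-OHT. Its markers Defa30 and Mptx2 were at 0 in all vehicle libraries, while Defa24 (0.933 to 4.26, normalized count) and Fabp6 (1.87 to 2.42) were low but present in each. Mmp7, which made up most of the vehicle level of this list, was the marker that fell, from 626 ± 57.0 to 513 ± 25.9 (normalized count, SD, n = 3; limma adjusted p = 0.0066). Markers of fibroblasts (at most 10.6 CPM), smooth muscle (at most 7.78), endothelium (at most 0.715) and leukocytes (at most 19.1) were scarce and highest in 4-OHT replicate 2 or 3. Egfr (0.54, limma adjusted p = 6.1e-05) and Hbegf (0.28, limma adjusted p = 0.023) were called without 4-OHT replicates 2 and 3, whereas Tgfa (0.11, limma adjusted p = 0.32) and Adam12 (2.10, limma adjusted p = 0.056) were not. In that fit the lone 4-OHT library is assumed to vary like the vehicle libraries. In bulk RNA, a change in the number of cells of a type and in the RNA per cell cannot be told apart, and the part of the epithelial markers in the rise of Egfr and Hbegf was not tested.

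**Figure D5:**
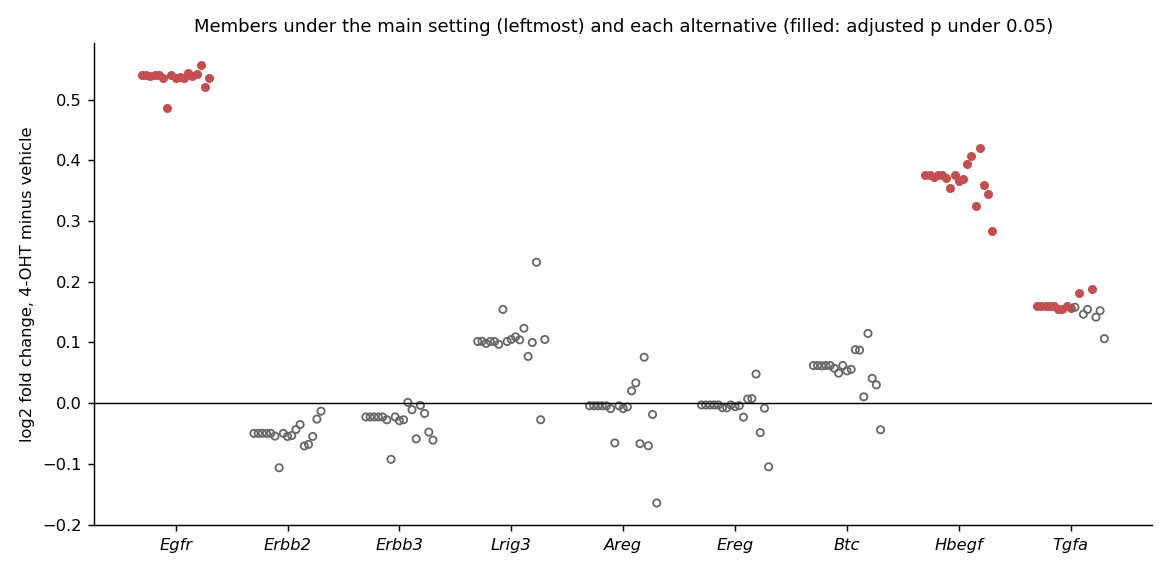
Log2 fold change (y axis, 4-OHT minus vehicle) of the 9 tested members under the main setting (leftmost point of each gene) and 16 alternatives, filled in red where the adjusted p was under 0.05 and open where it was not. Egfr and Hbegf are red throughout (0.49 to 0.56 and 0.28 to 0.42), and Tgfa is open in 6 of the alternatives.

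Over the 6 libraries, the rows whose log2 values followed Egfr most closely were Itpripl2, Neurl3 and Prkar1a, each with a Pearson correlation of 0.999. This is a description over 2 groups of 3 libraries, in which 127 rows had a correlation above 0.99 with Egfr.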

How the data were processed

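The 6 libraries were grouped by their titles into vehicle and 4-OHT (3 each). The deposited signal is a normalized count: the authors divided gene counts by 1 size factor per library, without correction for length. The submitters' processing notes name STAR, DESeq2 and the mouse build GRCm39 (mm39) with no roles, and the counting tool, annotation and strand setting are not given in the sources used here. All values (100%, within 0.1 reads) were whole multiples of 1 step per library, so whole reads were recovered.

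Rows whose normalized count averaged 10 or more were compared on log2(normalized count + 1) with limma-trend (limma 3.58.1, R 4.3.3) and Benjamini-Hochberg adjustment over all 13210 rows, at a threshold of 0.05. Fold changes are on that scale, and understate those of low genes. Pairwise chi-square values per degree of freedom within groups were 3.55 to 6.41, so no library copied another. edgeR 4.0.16 (quasi-likelihood test, 5780 rows called) and DESeq2 1.42.0 on the recovered reads were alternatives, beside other pseudocounts, filters and scalings, the replicate block and omission of libraries. Lengths and overlapping genes came from GENCODE vM21 (GRCm38), promoters and gene order from RefSeq (GRCm38.p6), and neither build is that of the deposited values.

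Members, lists and tests were chosen with earlier results of these data known. Besides the members and the targeted genes, the other ErbB receptors and ligands were named, with up to 3 genes per further list that were called, had groups apart and had the largest absolute change, and the 3 rows most correlated with Egfr. The values of 1 gene in the pathway lists are not reported here.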

Additional observations from a re-analysis of the deposited data

How the results depend on the processing

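Egfr (log2 fold change 0.49 to 0.56) and Hbegf (0.28 to 0.42) kept their call under all 16 alternatives, and Tgfa under 10 of them. Tgfa (0.11 to 0.19) lost it with DESeq2 and on omission of some libraries, and the cause was not tested. Between 3569 and 5780 rows were called. Without 4-OHT replicates 2 and 3 together, 3569 rows were called, 1858 higher and 1711 lower, in a fit with fewer libraries, and Btc changed sign to -0.044. On omission of 1 library at a time, the log2 fold change ran from -0.059 to 0.0012 for Erbb3, from -0.070 to 0.076 for Areg, from -0.049 to 0.048 for Ereg and from -0.027 to 0.23 for Lrig3, none of them called. Over the members 129 of 144 values kept direction and call, 6 lost the call and 9 changed sign. Over 19 other named genes 290 of 301 did and 11 lost the call, 10 of them for Egf and 1 for Adam12. With a minimum mean of 50, Egf, Nrg4 and Adam12 had no value. The libraries of the groups share replicate numbers, and the labels do not say whether these numbers pair them. Deviations of same-numbered libraries from their group means correlated at -0.0074, 0.030 and -0.020, against -0.048 to 0.047 for libraries of different numbers. With 3 libraries per group, this does not settle whether same-numbered libraries came from 1 mouse or culture. With the replicate block 5637 rows and 3 members were called, and Egf had an adjusted p of 0.060. Depth limits Epgn, Nrg1 and Nrg2, at 6 reads or fewer, and Egf and Nrg4.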
